A study of Mus musculus with 4 samples.

Results

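The genes of the 5 NF-κB subunits, Nfkb1, Nfkb2, Rel, Rela and Relb, and of 5 proteins that restrain or modify NF-κB, Nfkbia, Nfkbie, Nfkbiz, Tnfaip3 and Bcl3, were examined for Runx3 binding in splenic CD4+ dendritic cells (DC). A peak was placed at a gene when its centre lay in the gene body or within 50 kb of it, on mm9 with GENCODE M1 genes. The rule took 48 of the 15121 Runx3 peaks, none shared between 2 of the genes, and all 10 genes had at least 1 peak. Of all 22367 protein-coding genes, 62.6% had at least 1 peak by the same rule.

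Runx3 is a transcription factor of the RUNX family that binds DNA through its Runt domain. The ChIP-seq libraries were 2 Runx3_IP samples, immunoprecipitated with a home-made polyclonal antibody to Runx3, and 2 input samples of whole cell extract chromatin without antibody. Cells were WT splenic DC of C57BL/6 mice, although the label of input 2 reads C57BL/7. They were enriched for CD11c on magnetic beads and then sorted as CD11chiMHCII+CD4+ cells from about 15 pooled mice. The mice carried no transgene or treatment named in the labels, and their age is not given there. The deposited data are 1 peak list called by the authors on all samples together, so no value has a spread between replicates and no comparison was tested. RNA was not measured in these samples, so the labelled cell type could not be checked against its markers. The number of reads behind each peak is unknown, and a gene without a peak is one where none was called at this depth.

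NF-κB proteins are dimers of Rel-homology subunits that wait in the cytoplasm bound to inhibitors of the IκB family. Signals from Toll-like and TNF family receptors lead to degradation of the inhibitor or processing of a precursor subunit, and the dimers then enter the nucleus and bind κB sites. Several inhibitor genes are themselves induced by NF-κB and close a negative feedback loop. In DC the pathway is known for its part in maturation and in the life span of the cells.

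Sequence was read from NCBIM37, which is the assembly named mm9, 5′ to 3′ on the plus strand. The canonical RUNX hexamer TGTGGT was searched on both strands, and on the minus strand it reads ACCACA in these lines. The stretches around the copy nearest the centre of the strongest peak are shown first, to show the hexamer in its setting. The copies lay 3.5 to 401.5 bp from the peak centre, so that some stretches do not reach it, and the list gives no summit. For Relb and Bcl3 the strongest peak lay nearer to another gene, and the strongest peak nearest to the gene's own TSS is added. The hexamer is in capitals.
Nfkb1, intron 12, chr3:135271398-135271483: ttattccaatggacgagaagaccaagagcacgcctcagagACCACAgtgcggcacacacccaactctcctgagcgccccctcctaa
Nfkb2, upstream of the TSS, chr19:46378515-46378600: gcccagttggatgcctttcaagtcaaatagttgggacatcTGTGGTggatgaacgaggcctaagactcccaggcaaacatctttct
Rela, upstream, chr19:5625518-5625603: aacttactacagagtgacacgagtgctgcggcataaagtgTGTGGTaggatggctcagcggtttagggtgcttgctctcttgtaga
Relb, strongest peak, at the TSS of Clptm1, chr7:20250910-20250995: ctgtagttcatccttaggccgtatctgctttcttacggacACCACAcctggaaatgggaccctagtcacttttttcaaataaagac
Relb, intron 1, chr7:20213571-20213632: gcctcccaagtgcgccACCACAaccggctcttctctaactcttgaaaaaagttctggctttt
Nfkbiz, exon 14, chr16:55812063-55812092: aacccgcctgctACCACAgcaacgttggga
Bcl3, strongest peak, upstream, chr7:20430262-20430347: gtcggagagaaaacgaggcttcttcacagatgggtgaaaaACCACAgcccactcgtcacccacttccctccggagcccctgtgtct
Bcl3, intron 2, chr7:20403032-20403117: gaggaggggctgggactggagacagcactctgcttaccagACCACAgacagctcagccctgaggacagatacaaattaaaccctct
The remaining 4 strongest peaks, at Rel, Nfkbia, Nfkbie and Tnfaip3, held no TGTGGT. The bases around their centres are given next, cut at the annotated transcript start where there was one. Capitals mark the κB consensus, which is 3 G, a purine, any base, 3 pyrimidines and 2 C, and it was also searched on both strands.
Rel, intron 3, chr11:23654393-23654543: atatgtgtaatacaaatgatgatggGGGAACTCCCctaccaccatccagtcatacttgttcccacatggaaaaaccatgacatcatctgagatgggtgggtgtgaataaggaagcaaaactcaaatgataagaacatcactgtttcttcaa
Nfkbia, upstream of the TSS, chr12:56593646-56593796: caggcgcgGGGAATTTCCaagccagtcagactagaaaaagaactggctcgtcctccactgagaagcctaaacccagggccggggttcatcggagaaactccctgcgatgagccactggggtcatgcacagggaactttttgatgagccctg
Nfkbie, upstream of the TSS, chr17:45692516-45692664: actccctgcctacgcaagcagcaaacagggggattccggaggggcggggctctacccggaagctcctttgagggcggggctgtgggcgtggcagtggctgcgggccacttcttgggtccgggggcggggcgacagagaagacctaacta
Tnfaip3, downstream, chr10:18684760-18684910: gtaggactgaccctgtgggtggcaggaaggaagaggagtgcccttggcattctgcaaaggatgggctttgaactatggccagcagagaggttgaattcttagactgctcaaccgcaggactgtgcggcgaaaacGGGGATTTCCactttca
The last lines show κB matches, again in capitals, in peaks within 1 kb of a TSS of Relb, Nfkbia and Tnfaip3.
Relb, intron 1, chr7:20213680-20213769: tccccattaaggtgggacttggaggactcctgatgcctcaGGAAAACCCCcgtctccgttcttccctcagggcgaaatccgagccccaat
Nfkbia, intron 1, chr12:56592740-56592829: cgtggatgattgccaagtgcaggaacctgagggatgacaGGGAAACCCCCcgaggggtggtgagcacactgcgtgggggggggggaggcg
Tnfaip3, upstream of the TSS of a protein-coding transcript, chr10:18735217-18735268: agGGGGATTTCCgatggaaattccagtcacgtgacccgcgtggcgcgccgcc
In the intron 1 peak of Nfkbia the capitals cover 2 matches that overlap. The κB stretch of Rel matches the consensus on both strands at the same place and was counted once.

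The score that MACS2 wrote for each peak had a median of 12.1 over the list, with quartiles of 7.2 and 23.2 and extremes of 1.33 and 309. Its unit is not stated, so it is used here only to rank peaks within the list. At the NF-κB genes the median of the 48 scores was 13.8, the lowest was 2.67 and the highest 99.1. The 95% interval of this median, from order statistics and for counting error only, was 11.2 to 23.4 and included the list median. The strongest peaks were those upstream of Bcl3, in the body of Nfkb1 and at the TSS of Nfkb2, which ranked 171, 184 and 207 in the list. Rel and Rela had no peak in the upper quartile. The other 8 genes did, against 31% of all protein-coding genes.

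**Figure D1:**
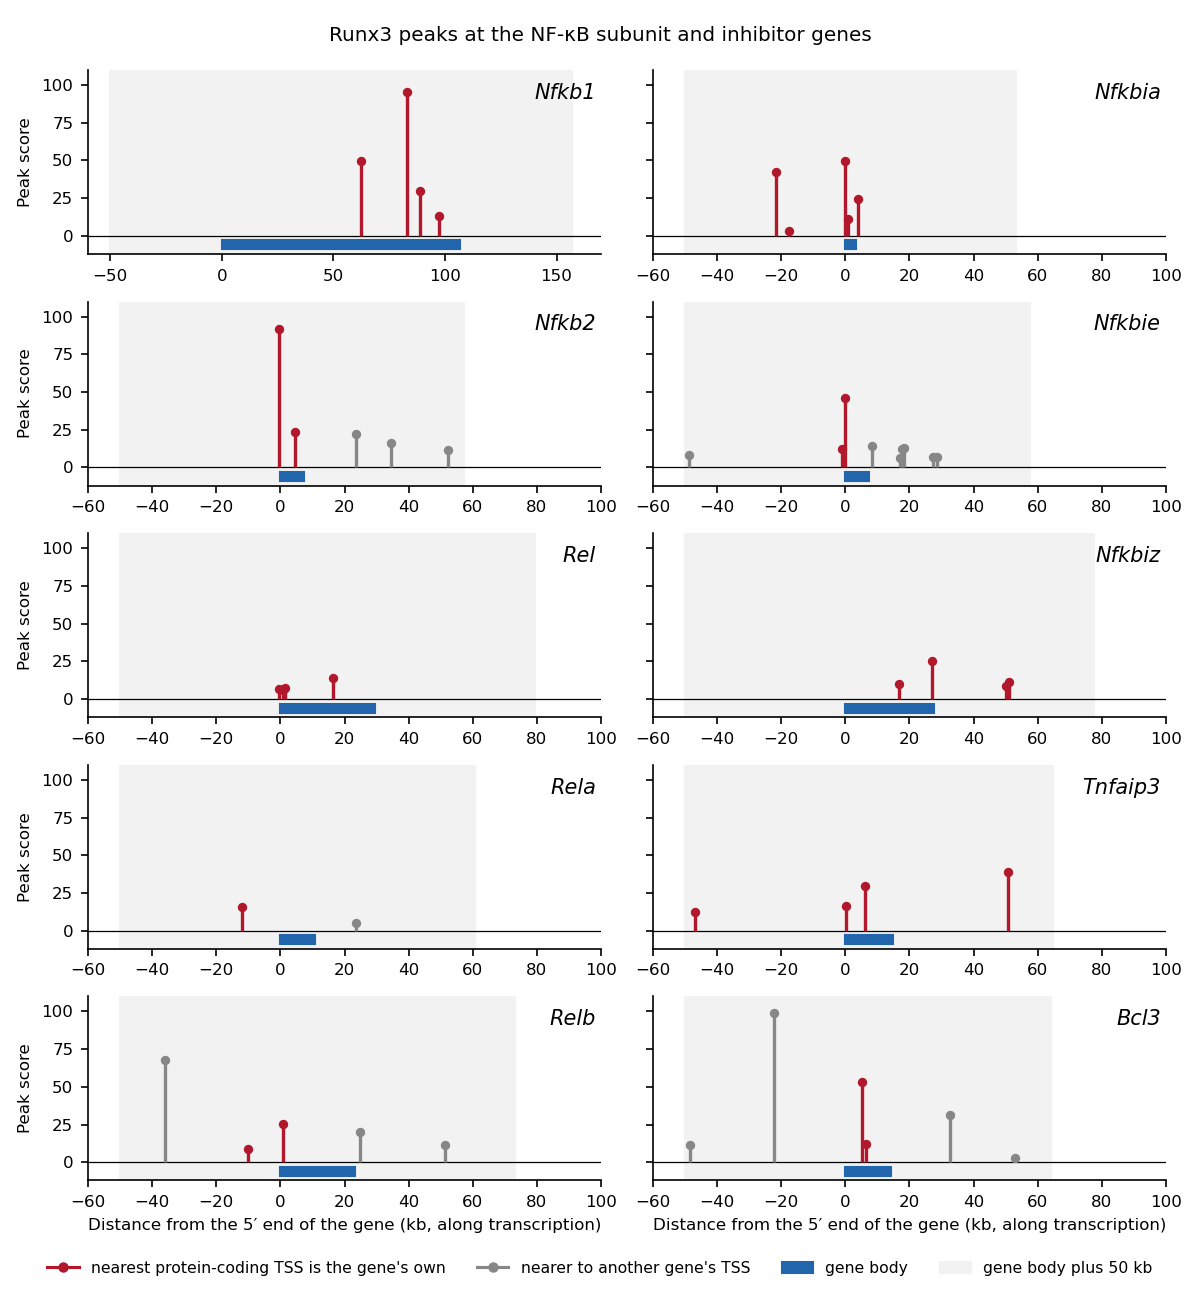
Each panel shows 1 gene, with the distance of the peak centre from the 5′ end of the gene in kb along transcription on the x axis and the peak score on the y axis. Blue bars are gene bodies, grey shading is the gene body plus 50 kb, red peaks lie nearest to a TSS of the gene and grey peaks nearer to another protein-coding TSS. The peaks of Nfkb1 all lie in the gene body at least 62550 bp from the 5′ end, whereas the strong peak of Nfkb2 stands at its 5′ end.

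Among the subunits, Nfkb1 encodes the precursor p105, from which p50 is made. Its gene body (ENSMUSG00000028163, chr3:135247619-135354511, minus strand) held 4 peaks, and none lay in the 50 kb on either side. The 4 scores were 49.4 in intron 6, 95.6 in intron 12, 30.0 in intron 16 and 13.4 in exon 19, in the order of transcription. The strongest peak (chr3:135270964-135271644) was centred 70 bp upstream of the internal TSS of Nfkb1-005, a protein-coding transcript that starts 83277 bp into the gene. The peaks of intron 16 and exon 19 also lay within 1 kb of internal TSS, those of transcripts annotated as nonsense-mediated decay and as processed transcript. No peak was found at the 5′ end, where the protein-coding transcript Nfkb1-001 begins.

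Nfkb2 encodes p100, the precursor of p52 and itself an inhibitor of RelB. The peak at its 5′ end (chr19:46378445-46379028) scored 91.9 and was centred 491 bp upstream of the TSS. A second peak, with a score of 23.4, lay in exon 13. The other 3 peaks in the window, with scores of 22.3, 16.4 and 11.2, were within 1 kb of the TSS of Fbxl15, Cuedc2 and Tmem180, so that 2 of the 5 peaks were nearest to Nfkb2 itself. Thus the genes of the 2 precursor subunits each held a peak above 90, at the 5′ end of one and at an internal TSS of the other.

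Rel encodes c-Rel and Rela encodes p65, which carry the transactivation domains of the classical dimers. Rel (chr11:23641514-23670970, minus strand) had 4 peaks, and all were nearest to its own TSS. A peak 306 bp upstream of the TSS scored 6.57, the pair in intron 1 scored 5.96 and 7.2, and the peak in intron 3, 16502 bp into the gene, scored 14.2. Rel therefore had several peaks around its start, and these 3 were at or below the lower quartile of the list. Rela (chr19:5637483-5648130, plus strand) had the fewest peaks of the 10 genes, a peak with a score of 15.7 centred 11952 bp upstream of the TSS and a peak with a score of 4.79 in exon 4 of Sipa1. No peak lay in the body of Rela or within 1 kb of its TSS.

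Relb encodes RelB, the usual partner of p52 in the alternative branch of the pathway. A peak of 842 bp with a score of 25.3 (chr7:20213571-20214412) had its centre in intron 1, 796 bp from the 5′ end and 142 bp from the TSS of a processed transcript. A further peak with a score of 8.8 lay 10209 bp upstream, in an intron of Clptm1. The other 3 peaks were nearer to Zfp296, Clasrp and Clptm1, with scores of 11.2, 19.8 and 68.1. The score of 68.1 was the highest in the window of Relb, and its peak lay 338 bp from the TSS of Clptm1 and 35930 bp from the 5′ end of Relb. The 20 peaks at the subunit genes had a median score of 16.1, and 13 of them were nearest to the subunit's own TSS.

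**Figure D2:**
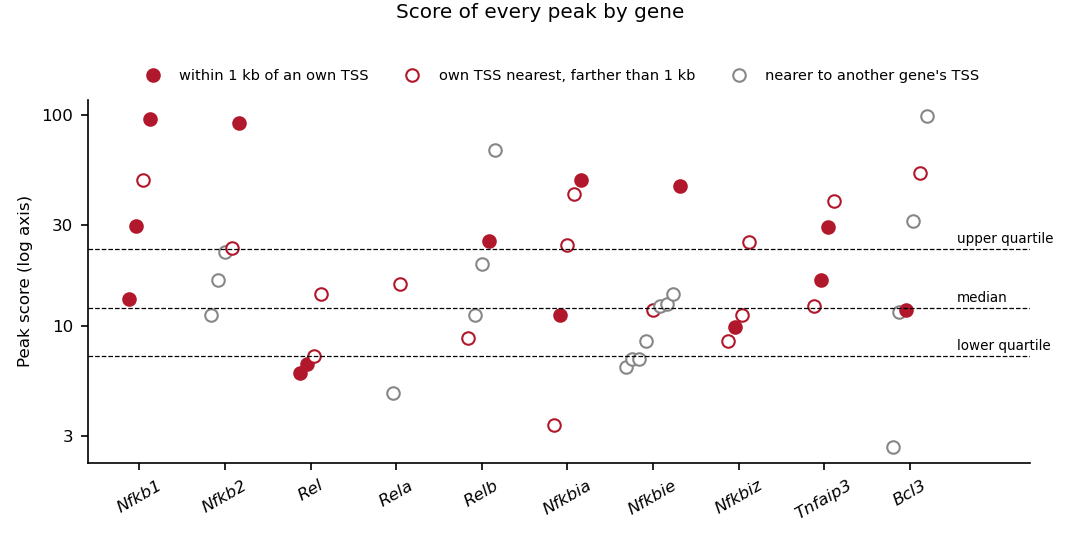
The y axis gives the peak score on a log axis and the x axis the 10 genes, with 1 point for each peak. Filled red points are peaks no farther than 1 kb from an own TSS, open red points are nearest to that gene but farther away, grey points are nearer to another gene, and dashed lines mark the quartiles of the whole list. All points of Rel and Rela lie below the upper quartile, and the highest points of Relb and Bcl3 are grey.

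Among the inhibitors, Nfkbia encodes IκBα, which NF-κB induces and which carries dimers back out of the nucleus. No other protein-coding gene lay within 50 kb of Nfkbia (chr12:56590398-56593634, minus strand), and all 5 peaks were nearest to its own TSS. The strongest (chr12:56593348-56594095) scored 49.4 and was centred 87 bp upstream of the TSS. Next came a peak with a score of 42.1 at 21543 bp upstream and a peak with a score of 24.4 at 646 bp beyond the 3′ end. The peak in intron 1 scored 11.2 and the one 17556 bp upstream scored 3.39. Thus 3 of the 5, at the start, upstream and just past the end of the gene, were in the upper quartile of the list.

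Nfkbie encodes IκBε, a slower feedback inhibitor. With 9 peaks it had the most of the 10 genes, and 98.5% of protein-coding genes had fewer. A peak with a score of 46.2 was centred 74 bp upstream of the TSS (chr17:45692333-45692850), and another with a score of 11.96 lay 1012 bp upstream. The other 7 were nearer to Aars2, Slc35b2, Hsp90ab1 or Slc29a1 and scored 6.4 to 14.2. The window of Nfkbie held 8 other protein-coding genes, the most among the 10, and 5 of its 9 peaks lay within 1 kb of a TSS of one of them.

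Nfkbiz and Bcl3 encode nuclear IκB proteins, IκBζ and Bcl-3, which bind p50 or p52 dimers on DNA and can activate as well as repress. All 4 peaks of Nfkbiz (chr16:55811488-55839012, minus strand) were nearest to its own TSS. The strongest, with a score of 24.9, lay in exon 14, near the 3′ end of the gene. A peak with a score of 9.86 was centred 54 bp from the internal TSS of Nfkbiz-004, and the pair with scores of 11.2 and 8.49 lay 23569 and 22574 bp beyond the 3′ end. As in Nfkb1, no peak was found at the 5′ end.

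The highest score of all 48 peaks, 99.1, belonged to a peak of 1027 bp (chr7:20429698-20430724) centred 22092 bp upstream of the 5′ end of Bcl3. The nearest protein-coding TSS was 7141 bp away, that of RP23-191I16.2, so this peak did not count as nearest to Bcl3. Within Bcl3 (chr7:20393811-20408119, minus strand), intron 2 held peaks of 53.2 and 11.96, the stronger centred 5126 bp from the 5′ end. The last 3 peaks, with scores of 31.3, 11.7 and 2.67, were nearer to Cblc, Ceacam16 and Bcam.

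Tnfaip3 encodes A20, a ubiquitin-editing enzyme that shuts off signalling upstream of the IκB kinase. No other protein-coding gene lay in its window (chr10:18720716-18735463 and 50 kb on either side), and all 4 peaks were nearest to its own TSS. The strongest, with a score of 39.1, lay 35881 bp beyond the 3′ end (chr10:18684580-18685091). A peak in intron 2 scored 29.5, the peak at the 5′ end, 60 bp upstream of the TSS of Tnfaip3-001, scored 16.5, and a peak 46933 bp upstream scored 12.4. In Tnfaip3 the 5′ end therefore carried one of the weaker peaks.

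Over the 10 genes, 16 peaks lay in gene bodies, 14 upstream and 18 downstream. Gene bodies of 8 genes held a peak, all but Rela and Nfkbie, against 23.2% of all protein-coding genes. The nearest protein-coding TSS was the gene's own for 30 peaks, and each of the 10 genes had at least 1 such peak, against 35.4% of protein-coding genes. Of the 18 peaks nearer to another gene, 13 lay within 1 kb of that gene's TSS. The median score was 16.1 for the 30 and 12.1 for the 18.

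A peak centre lay within 1 kb of an annotated TSS in 9 genes, all but Rela, against 24.9% of protein-coding genes. This count included internal TSS. Counting from the 5′ end of the gene, which was chosen after the data were seen, 6 genes had a peak within 1 kb, against 22.6%. They were Nfkb2, Rel, Relb, Nfkbia, Nfkbie and Tnfaip3. Nfkb1, Nfkbiz and Bcl3 had peaks at internal TSS and none at the 5′ end. The 14 peaks at own TSS had a median score of 20.9, and the 16 own peaks farther away had one of 15.0.

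The genes had a median of 4.5 peaks each, against 1 for all protein-coding genes. All but Rela, or 9 of the 10, had 4 or more, a limit chosen after the counts were seen, against 18.8% of protein-coding genes. The median number of other protein-coding genes in the window was 3 in both sets, and the median gene length was 14.5 kb against 15.4 kb. Per 100 kb of window the median was 3.77 peaks against 0.880. The background holds genes of every tissue, and how many of them are active in DC was not analysed here. Of the 48 peaks 17, or 35.4%, were in the upper quartile, against 25.4% of the list with ties included, and 9, or 18.8%, were in the highest 10% of the list. Of the 48 peaks, 56.3% lay within 1 kb of a protein-coding TSS of any gene, against 36.3% of the list. The 48 were taken for lying in a protein-coding gene or within 50 kb of it, and the list has no such limit. The rule by itself can raise their share, so this contrast cannot show whether these genes differ from others.

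**Figure D3:**
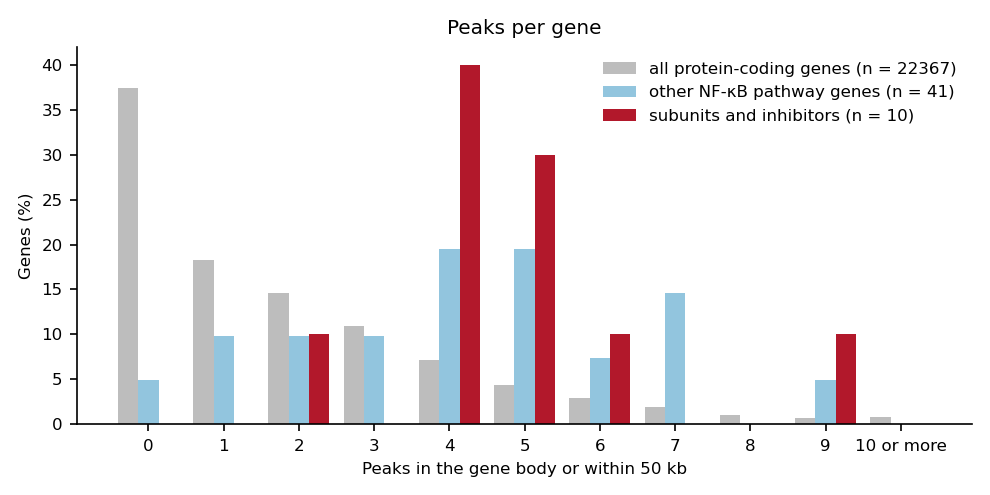
The x axis gives the number of peaks in the gene body or within 50 kb, and the y axis the percent of genes, for all 22367 protein-coding genes in grey, 41 other NF-κB pathway genes in blue and the 10 subunit and inhibitor genes in red. No red gene has fewer than 2 peaks, and of the protein-coding genes 8370 have 0 and 4081 have 1.

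The RUNX hexamer TGTGGT was found in 23 of the 48 peaks, 47.9% (95% exact binomial interval 33.3 to 62.8, counting error only), and in 54.0% of all peaks. In the 200 bp around the centre, which does not depend on peak width, the shares were 29.2% (17.0 to 44.1) and 41.8%. In windows of the same width 10 kb downstream, left out where they overlapped a peak, they were 25% of 44 and 30.9%. The share was below that of the list in the whole peak, in the 200 bp and in the downstream windows. The list's share lay inside the interval in each. The 30 peaks nearest to an own TSS, a set added after the data were seen, went both ways against the list. Their shares were 60.0% (40.6 to 77.3) in the whole peak and 36.7% (19.9 to 56.1) in the 200 bp. Of the 17 peaks in the upper quartile 13 held TGTGGT, 76.5% (50.1 to 93.2). The share of all upper-quartile peaks, 65.0%, lay inside that interval. Among the 48, peaks with it had a median score of 24.4 and those without it one of 12.4. The list leaned the same way, with the hexamer in 65.0% of its upper-quartile peaks and 54.0% of all its peaks. With TGCGGT allowed as well, 60.4% of the peaks and 66.5% of the list had a match. The remaining 19 peaks had neither form, and the peak of score 49.4 at the TSS of Nfkbia was among them.

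The κB consensus was found in 14 of the 48 peaks, 29.2% (17.0 to 44.1), and in 11.8% of all peaks. In the 200 bp around the centre the shares were 14.6% (6.07 to 27.8) and 6.45%. The share of the list thus lay below the interval for the whole peak and inside it for the 200 bp. None of 44 windows 10 kb downstream held it, for which the exact interval reaches up to 8.04%, and 4.66% of the windows of the list did. The matches were in peaks of 7 genes, all but Nfkb1, Rela and Nfkbiz, and 4 of the 14 peaks also held TGTGGT. Of the 14 peaks, 9 were nearest to an own TSS and the others were nearer to another gene. In Nfkbia the consensus lay 24 and 268 bp upstream of the TSS, both inside the peak of score 49.4. In Tnfaip3 it lay 7 bp upstream of the TSS of Tnfaip3-001, inside the peak of score 16.5, and again in the distal peak of score 39.1. Both strong peaks of Bcl3 held the consensus and the hexamer, with the consensus 79.5 bp from the centre of the upstream peak and 9.5 bp from the centre of the intron 2 peak.

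The letters of the promoters, from 250 bp before to 50 bp after the 5′ end of the gene, were searched irrespective of peaks. The κB consensus was present in 7 of the 10 promoters and in 5.91% of 22362 promoters of protein-coding genes. Rela, Nfkbie and Tnfaip3 lacked it in this window. In Tnfaip3 the match described above lies outside the window, because the 5′ end of the gene is 247 bp upstream of the TSS of Tnfaip3-001. TGTGGT was present in 1 of the 10 promoters, that of Rel, and in 15.3% of all. A match of letters is a description and not a measured binding site of NF-κB.

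For 3 other motifs the share of the list lay inside the interval of these peaks. The CRE-like hexamer TGACGT was found in 12.5% of the 48 peaks (4.73 to 25.2) and 11% of all peaks, the AP-1 motif TGANTCA in 16.7% (7.48 to 30.2) and 13.2%, and the ETS hexamer GGAAGT in 50.0% (35.2 to 64.8) and 52.8%. The peaks were somewhat wider and richer in G and C than the list, with a median width of 448.5 bp against 406 bp and a median GC content of 54.3% against 50.7%. The part of width and base composition in the motif shares was not tested.

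**Figure D4:**
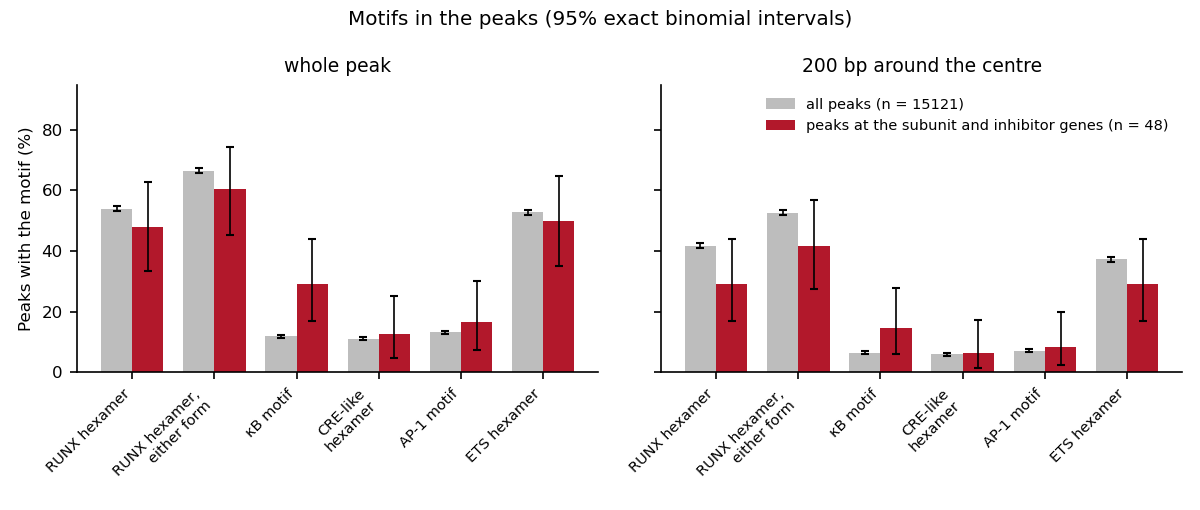
Bars give the percent of peaks with each motif on the y axis, in the whole peak at left and in the 200 bp around the centre at right, for all 15121 peaks in grey and the 48 peaks at the subunit and inhibitor genes in red. Whiskers are 95% exact binomial intervals. In the whole peak the red interval of the κB motif, 17.0 to 44.1%, lies above the grey bar, and in the 200 bp around the centre its interval, 6.07 to 27.8%, includes the grey bar's 6.45%.

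A list of 41 other genes of the pathway was read by the same rule. They were chosen from textbook roles, with earlier results of these data known. Of these 39, or 95.1%, had at least 1 peak, 32 had a peak nearest to their own TSS, 25 had a peak within 1 kb of a TSS and 27 had a peak in the upper quartile. The same shares over all protein-coding genes are 62.6%, 35.4%, 24.9% and 31%, and over the 41 genes they came to 95.1%, 78.0%, 61.0% and 65.9%. These genes had a median of 4 peaks each. The 2 genes without a peak were Tab3, an adaptor of the kinase TAK1, and Rbck1, which encodes HOIL-1 of the linear ubiquitin complex.

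Both other inhibitors had peaks, with the strongest score, 37.1, at the TSS of Nfkbib, which encodes IκBβ. All 7 kinase genes had peaks and 4 had one in the upper quartile. The highest was 65.9 at Chuk, which encodes IKKα. Of the 3 kinase partners none had a peak in the upper quartile, and the highest score, 19.8 at Tab1, belonged to a peak nearer to Rpl3. All 10 genes of adaptors and receptor-proximal factors had peaks. The highest was 109.5 at Irak3, which encodes IRAK-M, a restraint on Toll-like receptor signalling, in a peak 8023 bp from its nearest TSS.

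All 7 genes of TRAF and cIAP ubiquitin ligases had a peak in the upper quartile. The highest there, 95.9, was 1 peak in the windows of both Birc2 and Birc3, which are neighbours, and its nearest protein-coding TSS was that of C330006D17Rik. Of 12 genes of ubiquitin editing and A20 partners 11 had peaks and 9 had one in the upper quartile. A score of 69.3 was the highest at both Tax1bp1, an A20 partner, 156 bp from its TSS, and Cyld, a deubiquitinase, in a peak nearest to Nod2.

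**Figure D5:**
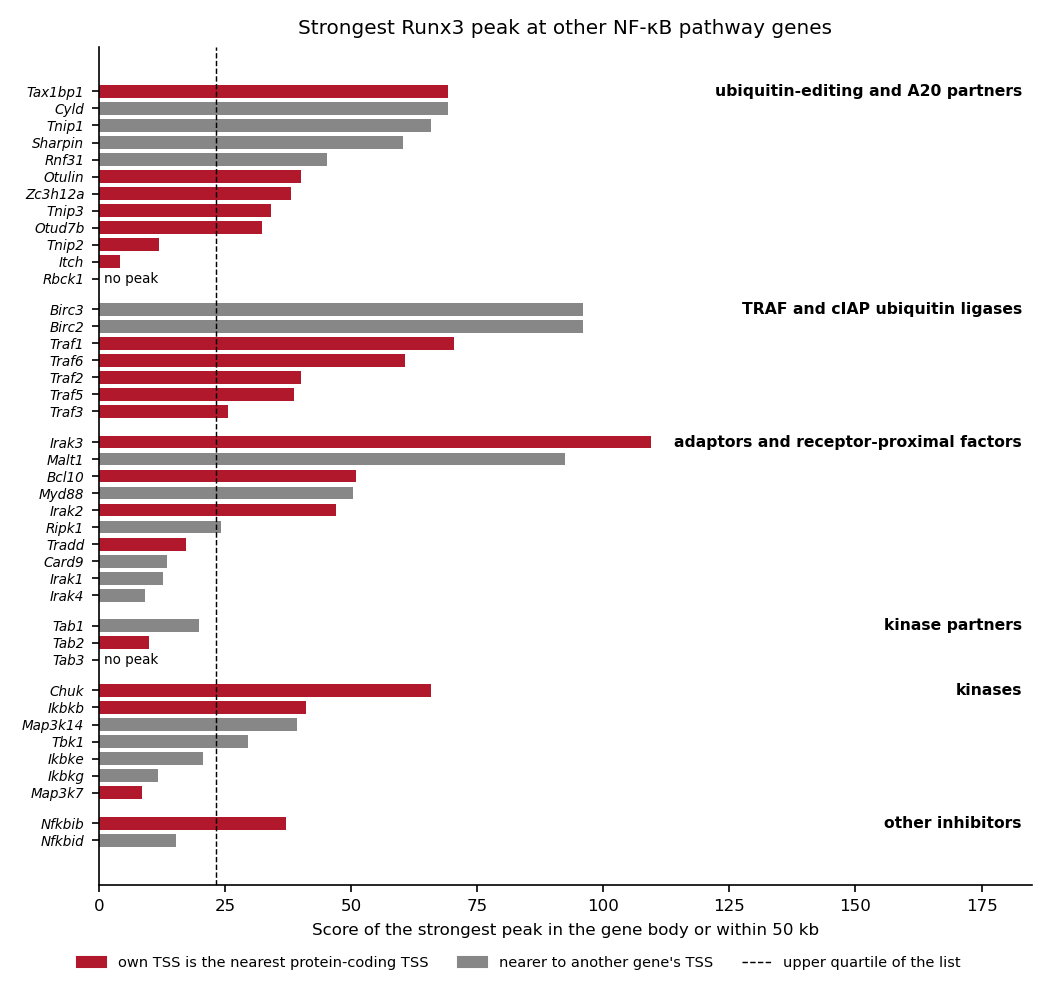
Bars give the score of the strongest peak in the gene body or within 50 kb of each of the 41 other pathway genes, grouped by role. Red bars are peaks whose nearest protein-coding TSS is the gene's own, grey bars peaks nearer to another gene, and the dashed line is the upper quartile of the list. Each of the 7 TRAF and cIAP ubiquitin ligase genes passes the line, and the 3 kinase partners do not.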

How the data were processed

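Runx3 ChIP-seq was examined in 2 Runx3_IP and 2 input samples. According to the submitters' processing notes, base calls came from CASAVA 1.8, and the authors aligned 50 bp reads to mm9 with Bowtie and called peaks with MACS2; the versions of Bowtie and MACS2 and the threshold are not given in the sources used here. The deposited list holds a start, an end and a score for each peak, called by the authors on pooled samples, in a unit that no source names. Pooling hides any difference between the replicates, and a peak seen in only 1 of them cannot be told from one seen in both.

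Peaks were placed by their centre on GENCODE M1 genes, counted from 1. All 10 genes and the 41 pathway genes matched, 1 of them by an older symbol (Otulin as Fam105b). The longest protein-coding transcript of a gene gave the intron and exon numbers. Motifs were searched on both strands of NCBIM37 sequence, and a match on both strands at the same place counted once. Counts and medians stand beside the same over all 22367 protein-coding genes or 15121 peaks. Shares have exact (Clopper-Pearson) 95% intervals, which cover counting error only and treat neighbouring peaks as independent. No test was run, because 1 pooled list has no replicate values.

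All 10 genes were named, with their strongest peak and the peak nearest a TSS. Of the pathway list, the gene with the strongest peak in each role group and the genes without a peak were named. The members and lists were chosen with earlier results of these data known. The alternatives were higher score limits, joined peaks, windows of 10 and 100 kb, other TSS sets, other motif windows and looser motifs. The scripts were tested on simulated data. The tools were pysam 0.24.0, matplotlib 3.10.9, scipy 1.17.1 and numpy 2.4.6, under Python 3.11.15.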

Additional observations from a re-analysis of the deposited data

How the results depend on the processing

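Of 37 alternative values, 27 stayed within 1.5 times the main count, or within the interval of the main share or median, and 10 did not. The number of genes with a peak stayed between 8 and 10. The 48 peaks became 28 at or above the list median, 17 at or above the upper quartile and 25 in windows of 10 kb, as stricter limits must give fewer. Genes with a peak at a TSS fell from 9 to 5 when only the TSS of the longest protein-coding transcript counted, which leaves 1 TSS per gene. The share of all protein-coding genes under that limit is not given here, so the 5 cannot be set against a background. The share with TGTGGT, 47.9%, was 29.2% in the 200 bp around the centre, 76.5% in upper-quartile peaks and 25% in downstream windows. The κB share, 29.2%, was 14.6% in the 200 bp around the centre and 0% in downstream windows. With a looser pattern it was 64.6% (42.2% of the list). In downstream windows the looser pattern was present in 38.6%, against 25.9% of the downstream windows of the list. Among the 30 peaks nearest to an own TSS, an alternative added after the data were seen, the shares were 60.0% and 30.0%. The list had 54.0% and 11.8%. No paired analysis was possible because the list is 1 call on pooled samples with no values per replicate, and for the same reason no replicate could be left out. Sequencing depth behind single peaks is unknown, so a missing peak is not evidence that Runx3 was absent.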

Other observations

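Beyond 50 kb, Nfkbiz and Tnfaip3 had further peaks for which theirs was the nearest protein-coding TSS. At Nfkbiz, 6 such peaks lay downstream, centred 56837 to 187707 bp beyond the 3′ end of the gene. Their scores were 26.9, 16.5, 7.94, 15.0, 12.7 and 24.5 in order of distance, so the nearest and the farthest were the strongest, and both were in the upper quartile of the list. TGTGGT was present in 4 of the 6, and the κB consensus in none of them. At Tnfaip3, 3 such peaks lay upstream, 62490, 89368 and 109208 bp from the 5′ end, with scores of 4.79, 8.13 and 8.7, below the list median. TGTGGT was present in the middle one of these.

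For Rela, which had the fewest peaks within 50 kb, the first peak outside that window scored 41.1 (chr19:5711849-5712354). It lay 63971 bp beyond the 3′ end, and its nearest protein-coding gene was Kcnk7. For Nfkbia the first peak outside scored 48.3 (chr12:56499436-56499966), 90697 bp beyond the 3′ end, with Psma6 as its nearest protein-coding gene. These were the strongest among the first peaks outside the windows of the 10 genes.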
